A study of Mus musculus with 107 samples.

Results

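The genes described here are Nos2, Ido1, Ptgs2, Ptges, Nt5e, Entpd1 and Il10, which encode enzymes and 1 cytokine known to restrain immune cells in tumors. They were chosen by their gene symbols, and the 7 were found among the 50686 genes of the expression table. RNA was sequenced from whole tumors of 12 mouse syngeneic models, in which a mouse cancer cell line is implanted under the skin of 7-week-old mice with an intact immune system. Treatment-naive tumors (Base, 35 tumors) were taken at about 100 mm3. Tumors without treatment (NT, 36 tumors) and tumors treated with lenvatinib (LEN, 36 tumors) were taken on day 8, LEN having been given orally at 10 mg/kg every day. LEN is a kinase inhibitor that blocks VEGF and FGF signaling, among other pathways, and so restrains the growth of tumor vessels. Each model had 3 tumors per group, except MC38 with 2 Base tumors. The models BNL 1ME A.7R.1 (liver), RAG and Renca (kidney), CT26.WT (colon), and 4T1 and EMT6 (breast) grew in BALB/cAnNCrlCrlj mice. MC38 (colon) and B16-F10 (melanoma) grew in C57BL/6NCrl mice, LL/2 (lung) in C57BL/6JCrl, KLN205 (lung) in DBA/2NCrl, MBT2 (bladder) in C3H/HeNCrl and Hepa 1-6 (liver) in C57L/J mice. The hosts were male for BNL 1ME A.7R.1 and Hepa 1-6 and female for the other models. Each model is 1 cell line in hosts of 1 strain and 1 sex. Line, tissue of origin, host strain and host sex therefore cannot be told apart when models are compared.

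Expression was deposited as TPM, an abundance of transcripts corrected for their length and with an equal sum for all tumors. How many reads stand behind a value is therefore unknown. For every tumor, the tumor most similar to it in protein-coding genes with a mean of at least 1 TPM came from the same model. The labelled tissue was checked against its markers. The 4 melanocyte markers summed to 5072 TPM or more in every B16-F10 tumor and to at most 2.6 TPM in every tumor of the other models. The 4 hepatocyte markers summed to 2860 TPM or more in Hepa 1-6 but to at most 1.6 TPM in BNL 1ME A.7R.1, which is also labelled a liver cancer line. Protein-coding genes took between 27.5% and 66.6% of TPM in the LEN tumors and between 40.5% and 62.3% in the NT tumors. The 4 skeletal muscle markers, which stand for tissue next to the implant, summed to a mean of 1632 TPM in the LEN tumors of BNL 1ME A.7R.1 and 66.9 TPM in its NT tumors. In whole-tumor RNA, fewer cells of a type and less RNA per cell cannot be told apart.

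The inducible nitric oxide synthase (Nos2) turns arginine into nitric oxide and is typical of activated macrophages and of other myeloid cells in tumors. The indoleamine dioxygenase encoded by Ido1 breaks down tryptophan and is induced by interferon gamma. The inducible cyclooxygenase (Ptgs2) and microsomal prostaglandin E synthase (Ptges) act one after the other to make PGE2, and both can be made by cancer cells. The surface enzymes CD39 (Entpd1) and CD73 (Nt5e) turn extracellular ATP into adenosine in successive steps, and Il10 encodes interleukin-10, a cytokine that damps myeloid activation. In GRCm38 these are protein-coding genes on chromosomes 11 (Nos2), 8 (Ido1), 1 (Ptgs2 and Il10), 2 (Ptges), 9 (Nt5e) and 19 (Entpd1).

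Promoter sequences of 4 of the 7 genes were at hand from RefSeq (GRCm38.p6), covering 250 bases before and 50 bases after a start site. Those of Ptgs2 and Ptges are shown because these genes encode successive enzymes and their levels were correlated across models, as described below. The Ptgs2 promoter lies at chr1:150099781-150100080 on the plus strand and the Ptges promoter at chr2:30903248-30903547 on the minus strand. Both are written 5′ to 3′, and capitals mark a loose form of the NF-kappaB motif, GGG and CC with any 5 letters between them, searched on both strands as all motifs below.
Ptgs2: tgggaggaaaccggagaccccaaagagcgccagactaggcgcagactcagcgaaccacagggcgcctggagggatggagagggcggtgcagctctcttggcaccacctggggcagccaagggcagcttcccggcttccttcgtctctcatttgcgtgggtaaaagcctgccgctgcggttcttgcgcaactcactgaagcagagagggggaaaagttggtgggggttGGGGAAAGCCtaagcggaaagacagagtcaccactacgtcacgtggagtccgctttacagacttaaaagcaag
Ptges: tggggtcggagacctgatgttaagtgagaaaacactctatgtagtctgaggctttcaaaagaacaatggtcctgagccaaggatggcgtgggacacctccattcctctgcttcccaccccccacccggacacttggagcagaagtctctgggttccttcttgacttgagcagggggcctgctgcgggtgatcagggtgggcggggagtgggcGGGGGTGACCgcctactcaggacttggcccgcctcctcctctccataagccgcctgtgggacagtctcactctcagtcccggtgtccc
The capitals begin at -23 from the start site in Ptgs2 and at -38 in Ptges. These letters are common, being present in 50.8% of 32851 promoters of the same length, and the Nt5e promoter holds 2 overlapping matches, at -34 and -33. The loose C/EBP motif TTNNGNAA, present in 40.7% of promoters, was found in Ptgs2 at -69 and -25, in Ptges at -198 and in 1 of 2 Entpd1 promoters at -57. A form of the hypoxia response element core, ACGTG, was found in this window in Ptgs2 alone among the 4 genes. Other forms of the core were not searched. ACGTG had 2 matches on opposite strands that overlap at 16 and 17, and it is present in 19.6% of promoters. The other motifs searched were not in these windows. They were the GAS element TTCNNNGAA, present in 8.3% of promoters. The cyclic AMP response element TGACGTCA was present in 1.79% of them. The AP-1 motif TGANTCA was present in 7.81% of them. The TATA box TATAAA was present in 13.6% of them.

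In the treatment-naive tumors, the 7 genes differed widely between models. All 7 passed the F test for a difference between the 12 models (limma on log2(TPM + 1), Benjamini-Hochberg adjusted p from 1.59e-19 for Ptges to 0.00192 for Il10). This is near what genes in general showed, since 86.1% of the 25664 genes tested passed. Levels below are means of TPM ± SD over the 3 tumors of a model (2 for MC38 Base).

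Nos2 had a median of 4.87 TPM over the 35 Base tumors. It had its highest level in Hepa 1-6 (61.2, 93.4 and 124 TPM, mean 92.9 ± 31.4), followed by MC38 (20.4 and 23.0 TPM), and neither overlapped the next model. Below RAG (10.7 ± 3.50), every model overlapped its neighbor down to KLN205 (1.40 ± 0.589).

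Ptgs2 and Ptges were high in overlapping sets of models. Ptgs2 was highest in EMT6, with 47.7, 62.2 and 63.9 TPM, apart from the next model, CT26.WT (19.7 ± 4.76), and lowest in Renca (0.393 ± 0.0950). Ptges was highest in LL/2 (80.6 ± 16.7) and MBT2 (71.4 ± 6.83), and it was low in Renca (2.65 ± 0.520), RAG (1.95 ± 0.679) and B16-F10 (0.970 ± 0.670). These same 3 models were also the lowest for Ptgs2, with at most 2.08 TPM in any of their Base tumors. Over the 12 Base models, Pearson's r between Ptgs2 and Ptges was 0.867, the highest of all pairs of the 7 genes. The models share a laboratory and a pipeline, and 6 of the 12 share a host strain, so r is given as a description.

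The adenosine enzymes were spread differently. Nt5e was concentrated in 4T1, with 70.6, 82.2 and 99.7 TPM, and then in EMT6 (18.6 ± 0.578) and KLN205 (12.5 ± 2.72). Each of these 3 stood apart from the next, while the other 9 models lay between 1.41 and 5.85 TPM on average. Entpd1 was the most even of the 7 genes, with a highest model mean 8.56 times the lowest, against 147.2 times for Ptgs2. Hepa 1-6 (49.9 ± 9.43) was highest, B16-F10 (5.83 ± 0.549) was lowest, and the 10 models between them overlapped their neighbors.

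Ido1 and Il10 were low in most tumors. Ido1 was below 1 TPM in 23 of 35 Base tumors and listed at 0 in 4 of them. It exceeded 1 TPM in every Base tumor of MC38 (11.15 and 20.4 TPM), Hepa 1-6 (11.4, 15.6 and 17.6 TPM), RAG (2.44, 2.62 and 5.97 TPM) and CT26.WT (1.47, 1.92 and 3.39 TPM). Il10 was below 1 TPM in 31 of 35 Base tumors, and its highest model means were 1.52 TPM in MC38 and 1.10 TPM in MBT2. In its order of models, all 11 pairs of neighbors overlapped.

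**Figure D1:**
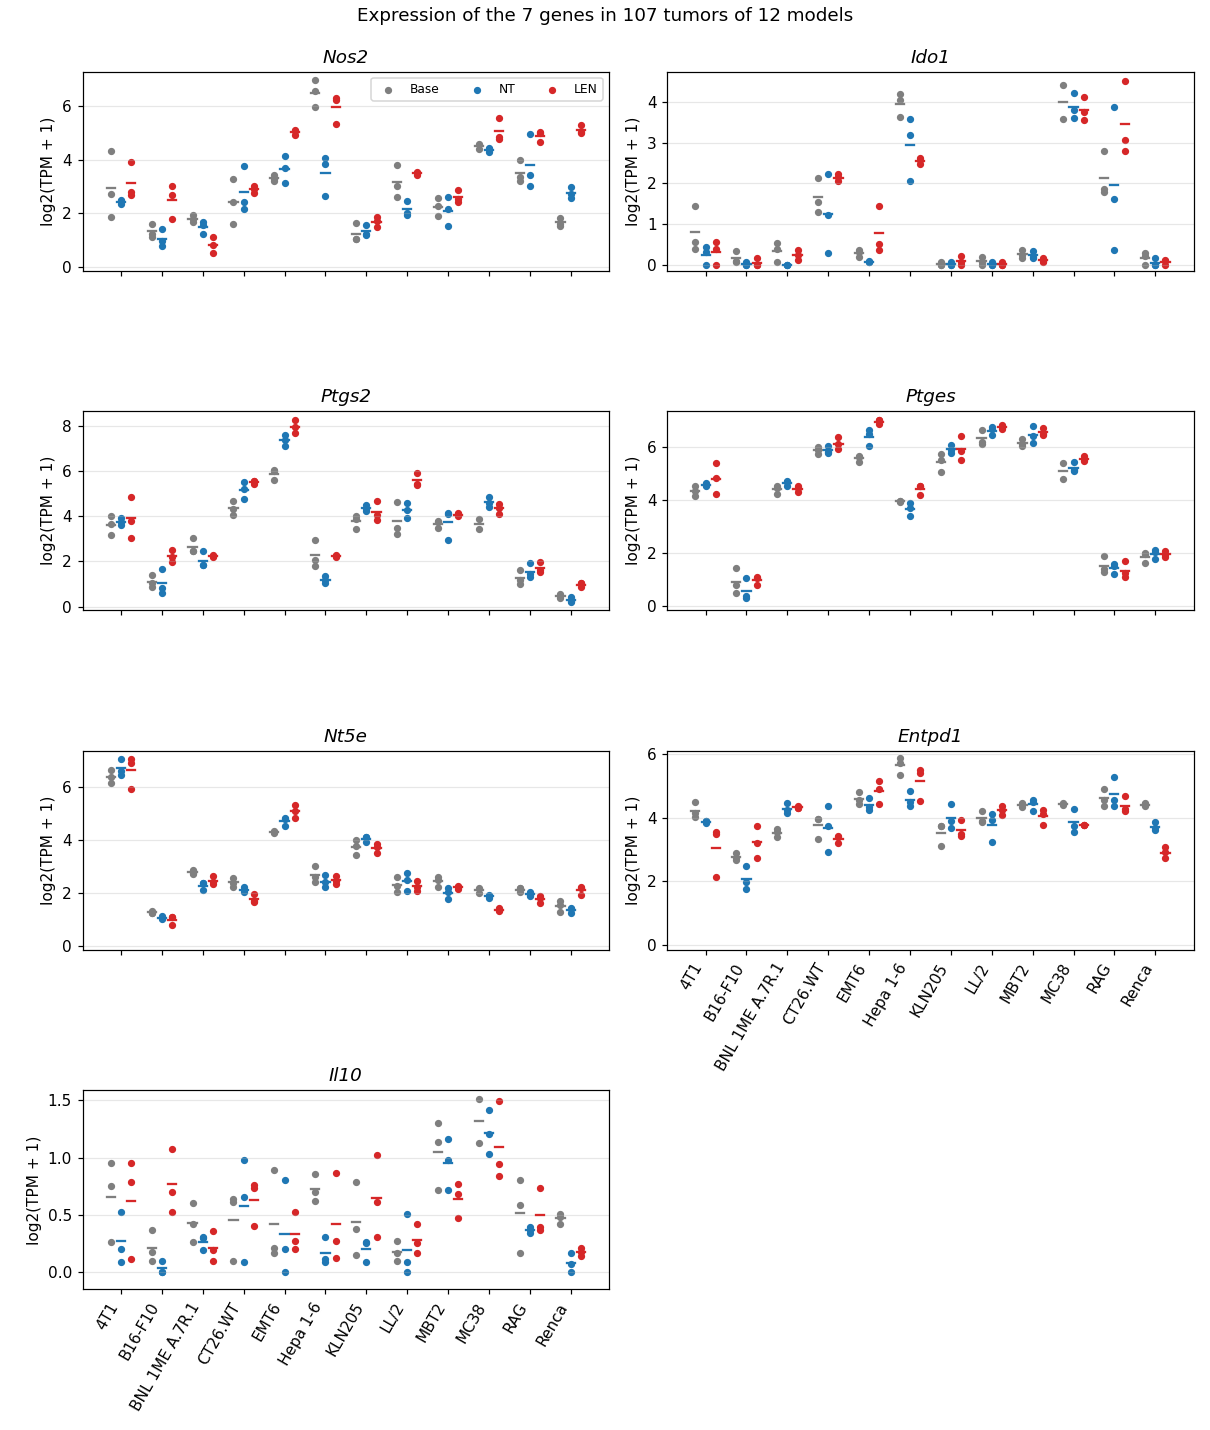
Expression of the 7 genes as log2(TPM + 1) in each tumor (points) of the 12 models on the x axis, with group means (bars) for Base (gray), NT (blue) and LEN (red). Nt5e is concentrated in 4T1, Ido1 in MC38, Hepa 1-6, RAG and CT26.WT, and Nos2 lies higher in LEN than in NT tumors in 7 models without overlap.

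LEN was compared with NT on day 8 to ask how the treatment changed these genes. Averaged over the 12 models, Nos2, Ptgs2 and Ptges rose, and none of the 7 genes fell. In limma on log2(TPM + 1) over all 25636 genes tested, 10.7% of genes rose and 7.56% fell with LEN. Against this background 3 of the 7 genes were higher and 0 were lower, and at an unadjusted p under 0.05 there were likewise 0 lower. The changes are differences of mean log2(TPM + 1), which understates the change of a gene near 0 TPM. Without BNL 1ME A.7R.1, the model with the highest muscle markers among LEN tumors, 3 were again higher and 0 lower. The shares above are those of the fit with all 12 models. Muscle markers rose with LEN in B16-F10 too, as given below, so leaving out 1 model does not remove their rise. Their part was not tested. Of all called genes 58.6% were higher, and 43.7% after rescaling each tumor by its upper quartile, while the 7 genes had 5 positive and 2 negative changes under each of the 3 scalings tried.

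Nos2 rose by 0.98 ± 0.10 (SE) on the log2 scale (95% CI 0.776 to 1.19, adjusted p = 1.29e-10) and was higher in 11 of 12 models by the mean of log2(TPM + 1), or 10 by the mean of TPM, CT26.WT being the difference. In Renca it was 4.90, 5.51 and 6.87 TPM in NT tumors and 30.9, 32.0 and 38.9 TPM in LEN tumors. In Hepa 1-6 it was 5.24, 13.2 and 15.8 TPM in NT and 39.1, 75.2 and 78.05 TPM in LEN. In both models all LEN tumors lay above all NT tumors, and the means differed 5.89-fold and 5.63-fold. In EMT6 the values were 7.66, 12.1 and 16.5 TPM in NT and 29.5, 33.1 and 33.5 TPM in LEN. In B16-F10 they were 0.69, 0.95 and 1.65 TPM in NT and 2.41, 5.39 and 7.11 TPM in LEN. In LL/2 they were 2.86, 3.03 and 4.53 TPM in NT and 9.89, 10.45 and 10.6 TPM in LEN. The ranges were also separate, with LEN higher, in 4T1 and MC38, which makes 7 of 12 models. BNL 1ME A.7R.1 went the other way, from 1.36, 1.92 and 2.21 TPM in NT to 0.42, 0.75 and 1.17 TPM in LEN, again without overlap. Over all genes and models, the LEN tumors were all above the NT tumors in 10.4% of gene-by-model pairs and all below in 8.84%.

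The other genes of arginine and nitric oxide metabolism moved in both directions. Of 10 listed genes, Nos2 included, 4 rose and 3 fell (median change 0.0147, against 0.000429 over all genes tested). Slc7a2, an arginine transporter, rose by 0.61 ± 0.09 (adjusted p = 6.58e-07), and Nos1, the neuronal nitric oxide synthase, rose by 0.20 ± 0.04 (adjusted p = 0.000478). Nos3, the nitric oxide synthase of endothelial cells, fell by 0.43 ± 0.04 (adjusted p = 5.18e-11) and was lower in all 12 models. All 6 endothelial markers fell as well, with summed levels from 41.3 to 189 TPM in NT tumors and from 19.3 to 108 TPM in LEN tumors. Their part in the fall of Nos3 was not tested.

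Ptgs2 rose by 0.47 ± 0.08 (95% CI 0.31 to 0.627, adjusted p = 8.03e-06) and was higher in 10 of 12 models. EMT6, already the highest in Base tumors, had 137, 165 and 191 TPM in NT and 205, 245 and 298 TPM in LEN. LL/2 had 14.1, 18.5 and 23.0 TPM in NT and 41.2, 42.2 and 59.4 TPM in LEN, the largest of its 12 differences on the log2 scale (1.32). Hepa 1-6 went from 1.08, 1.28 and 1.54 TPM to 3.61, 3.75 and 3.95 TPM. In these 3 models, and in B16-F10 and Renca, the LEN tumors all lay above the NT tumors. In Renca the level stayed low, at 0.15, 0.18 and 0.35 TPM in NT and 0.85, 1.04 and 1.04 TPM in LEN. In MC38 and KLN205 the LEN mean was the lower, and the groups overlapped.

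Ptges changed less, by 0.21 ± 0.06 (95% CI 0.0928 to 0.325, adjusted p = 0.00641), and was higher in 9 of 12 models. In EMT6 it was 64.6, 89.9 and 100.4 TPM in NT and 116, 128 and 129 TPM in LEN. In Hepa 1-6 it was 9.46, 12.0 and 14.01 TPM in NT and 17.4, 22.4 and 22.5 TPM in LEN. These and MC38 were the 3 models without overlap. The call rested on Hepa 1-6, since without this model the change was 0.16 (adjusted p = 0.0636). With the replicate number as a block the change was 0.18 (adjusted p = 0.116).

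Of 18 listed prostaglandin genes, Ptgs2 and Ptges included, 7 rose and 3 fell (median change 0.08). Hpgds, which makes PGD2 in myeloid and mast cells, fell by 0.71 ± 0.07 (adjusted p = 4.76e-11). Ptgis, the prostacyclin synthase, rose by 0.25 ± 0.08 (adjusted p = 0.0336), and Slco2a1, a prostaglandin transporter, rose by 0.21 ± 0.05 (adjusted p = 0.00134). The pathway's genes were divided, with Ptgs2 having the largest rise among them and Hpgds the largest fall.

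Nt5e and Entpd1 did not pass the test on average, and their differences varied between models. The mean change of Nt5e was -0.01 ± 0.05 (95% CI -0.109 to 0.0899, adjusted p = 0.93) and that of Entpd1 -0.04 ± 0.08 (95% CI -0.207 to 0.13, adjusted p = 0.814). For Nt5e, Renca went from 1.35, 1.62 and 1.67 TPM in NT to 2.79, 3.50 and 3.65 TPM in LEN. MC38 went the other way, from 2.47, 2.65 and 2.82 TPM to 1.49, 1.55 and 1.70 TPM. CT26.WT and KLN205 also had all LEN tumors below all NT tumors. In 4T1, where Nt5e is highest, the values were 87.8, 96.9 and 131 TPM in NT and 60.3, 121 and 132 TPM in LEN, and the groups overlapped.

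For Entpd1, Renca fell from 11.3, 11.8 and 13.7 TPM to 5.68, 6.53 and 7.38 TPM, so that in the same tumors the 2 enzymes of adenosine production moved in opposite directions. B16-F10 had 2.39, 2.94 and 4.57 TPM in NT and 5.67, 8.33 and 12.3 TPM in LEN. In 4T1 the NT tumors had 13.1, 13.75 and 13.97 TPM and the LEN tumors 3.37, 10.3 and 10.8 TPM. The lowest of these, LEN replicate 4, is the tumor with 27.5% of TPM in protein-coding genes, against 45.3% and 43.8% in the others, and each of the 7 genes was at its lowest there among the 4T1 LEN tumors. Without it the mean change over models was 0.02 for Nt5e and 0.00 for Entpd1 (adjusted p = 0.79 and 0.999), 1.00 for Nos2 and 0.50 for Ptgs2. The summed level of the 8 macrophage markers and the mean of Entpd1 differed in the same direction in 11 of 12 models, and over the 12 differences Pearson's r between Entpd1 and the markers' mean log2(TPM + 1) was 0.828, given as a description of models that share a pipeline. Other lists had a similar r with Entpd1, at 0.843 for the fibroblast, 0.786 for the monocyte, 0.769 for the IL-10 pathway and 0.753 for the prostaglandin genes. The sum went from a mean of 873 to 398 TPM in Renca, from 95.1 to 297 TPM in B16-F10 and from 839 to 464 TPM in 4T1. In LL/2, the exception, the sum went from 560 to 255 TPM while the mean of Entpd1 was 13.1 ± 4.06 TPM in NT and 17.9 ± 1.94 TPM in LEN. The part of these cells in the Entpd1 differences was not tested. Of 15 listed adenosine genes 14 were tested with LEN, of which 2 rose and 2 fell (median change -0.01), where 10.7% and 7.56% of all genes did. Adora2b, an adenosine receptor, rose by 0.29 ± 0.06 (adjusted p = 7.45e-05), Entpd3 rose by 0.18 ± 0.05 (adjusted p = 0.00487), and Cd38, an NAD-consuming surface enzyme, fell by 0.28 ± 0.07 (adjusted p = 0.0017).

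Ido1 and Il10 were low in most models and did not pass the test on average. The mean change of Ido1 was 0.25 ± 0.12 (95% CI 0.00833 to 0.485, adjusted p = 0.156), and it was listed at 0 in 12 of 36 NT and 7 of 36 LEN tumors. Its highest difference was in RAG, with 0.28, 2.08 and 13.7 TPM in NT and 6.00, 7.36 and 22.1 TPM in LEN, where the spread among NT tumors was large. Without RAG the mean change over the other models was 0.13 (adjusted p = 0.273), and without RAG NT replicate 2 alone it was 0.33 (adjusted p = 0.0068). In Hepa 1-6 and MC38, where Ido1 is high, the NT tumors had 3.15 to 10.99 TPM and 11.3 to 17.8 TPM, and the LEN tumors 4.62 to 5.17 TPM and 10.9 to 16.4 TPM. The LEN mean of Ido1 was thus the lower in the 2 models with its highest means in Base and NT tumors, while among LEN tumors RAG ranked above Hepa 1-6, although Ido1 and Nos2 had r = 0.843 over the Base models. All LEN tumors lay above all NT tumors in 2 models with little Ido1, and below them in 0. Over all genes 10.4% of gene-by-model pairs lay above and 8.84% below. The 2 models were EMT6, with 0.04, 0.05 and 0.06 TPM in NT and 0.29, 0.41 and 1.73 TPM in LEN, and BNL 1ME A.7R.1. In the latter the NT tumors were listed at 0 and the LEN tumors had 0.08, 0.18 and 0.29 TPM, too low to be tested in that model alone. Of 11 listed genes of tryptophan breakdown, 1 rose and 1 fell, where 10.7% and 7.56% of all genes did. Ido2, a paralog of Ido1, rose by 0.26 ± 0.08 (adjusted p = 0.017). Kyat3, a kynurenine aminotransferase, fell by 0.26 ± 0.05 (adjusted p = 2.87e-05).

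Il10 had a mean change of 0.14 ± 0.06 (95% CI 0.0216 to 0.255, adjusted p = 0.0935). It passed the threshold when CT26.WT NT replicate 1 (adjusted p = 0.0495), 4T1 LEN replicate 4 (0.0312) or EMT6 NT replicate 4 (0.0417) was left out, and without MBT2 (0.0352), whereas without B16-F10 the mean change was 0.08 (adjusted p = 0.417). With a pseudocount of 0.1 in place of 1, the changes of Il10 and Ido1 were 0.58 (adjusted p = 0.0189) and 0.60 (adjusted p = 0.034). Il10 went from 0.00, 0.00 and 0.07 TPM to 0.44, 0.62 and 1.11 TPM in B16-F10, and LEN was also higher without overlap in KLN205. Among 8 genes of the IL-10 pathway 3 rose and 1 fell with LEN. Socs3, a feedback inhibitor of cytokine signaling, rose by 0.46 ± 0.06 (adjusted p = 1.99e-08), Stat3 rose by 0.21 ± 0.04 (adjusted p = 0.000225), and Maf, a transcription factor of macrophages, fell by 0.21 ± 0.05 (adjusted p = 0.00144).

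**Figure D2:**
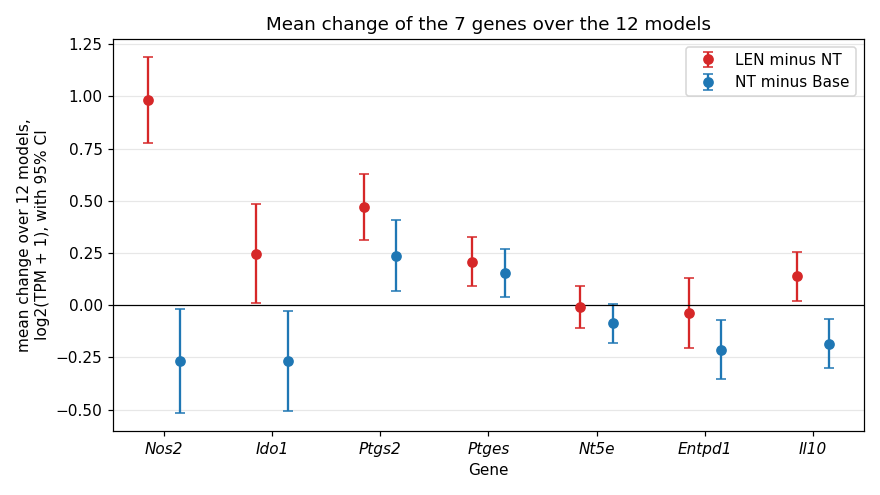
Mean change over the 12 models in log2(TPM + 1) (y axis) of each gene (x axis) for LEN minus NT (red) and NT minus Base (blue), with 95% confidence intervals as bars. Nos2, Ptgs2 and Ptges were higher with LEN, and Entpd1 and Il10 were lower in NT than in Base tumors, the NT tumors being shared by both comparisons.

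The effect of LEN differed between models for 4 of the 7 genes by the F test, against 28.7% of all genes tested. These were Nos2 (adjusted p = 3.72e-05), Entpd1 (0.00171), Nt5e (0.00184) and Ptgs2 (0.00651). For Ptges (0.115), Il10 (0.142) and Ido1 (0.218) the test was not passed. Fitting each model alone on its 6 tumors, 78 of the 84 gene-by-model pairs could be tested, of which 4 were higher with LEN and 1 was lower. Among all genes 2.57% of such pairs were higher and 0.874% lower. Renca held 4 of the 5 called pairs, with Nos2 (change 2.37 ± 0.14, adjusted p = 0.000739), Ptgs2 (0.69 ± 0.11, 0.0136) and Nt5e (0.76 ± 0.13, 0.0179) higher and Entpd1 (-0.82 ± 0.12, 0.0106) lower. In Renca 3.48% of all genes were higher and 5.02% lower. The other was Il10 (0.73 ± 0.16, 0.0423) in B16-F10, where 6.48% of genes were higher. Renca and B16-F10 are among the 3 models in which most genes were called, with 1908 genes in Renca, 1788 in B16-F10 and 5537 in BNL 1ME A.7R.1 against at most 80 in any other. In limma without adjustment 27 pairs had a p under 0.05, where 15.6% of pairs over all genes did. Nos2 gave 8 of them, 7 higher with LEN and 1, in BNL 1ME A.7R.1, lower. In Hepa 1-6, where Nos2 changed by 2.45 ± 0.42, its adjusted p was 0.0935 with the model fitted alone. The lead of Renca depended on fitting models apart. With all models in 1 fit, which shares the estimate of spread, 12 of 84 pairs were higher and 0 lower, against 3.42% and 2.19% of pairs over all genes, and 3 of the 5 calls were kept. Ptgs2 (adjusted p = 0.127) and Entpd1 (0.0766) in Renca were lost. The 12 were 4 in B16-F10 (Nos2, Ptgs2, Entpd1 and Il10), 3 in Hepa 1-6 (Nos2, Ptgs2 and Ptges), 2 in LL/2 (Nos2 and Ptgs2), 2 in Renca (Nos2 and Nt5e) and 1 in EMT6 (Nos2).

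Some of these calls depended on single tumors. Nt5e in Renca was lost without NT replicate 5, LEN replicate 2 or LEN replicate 4 (0.0624 to 0.0742), and Ptgs2 in Renca without LEN replicate 2 or LEN replicate 5 (0.0523 and 0.0588). Il10 in B16-F10 was kept in 1 of 6 such fits, with adjusted p from 0.0486 to 0.117. Beside the B16-F10 call, the skeletal muscle markers went from 6.38 to 146 TPM and the monocyte markers from 10.1 to 65.6 TPM with LEN, and their part was not tested.

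**Figure D3:**
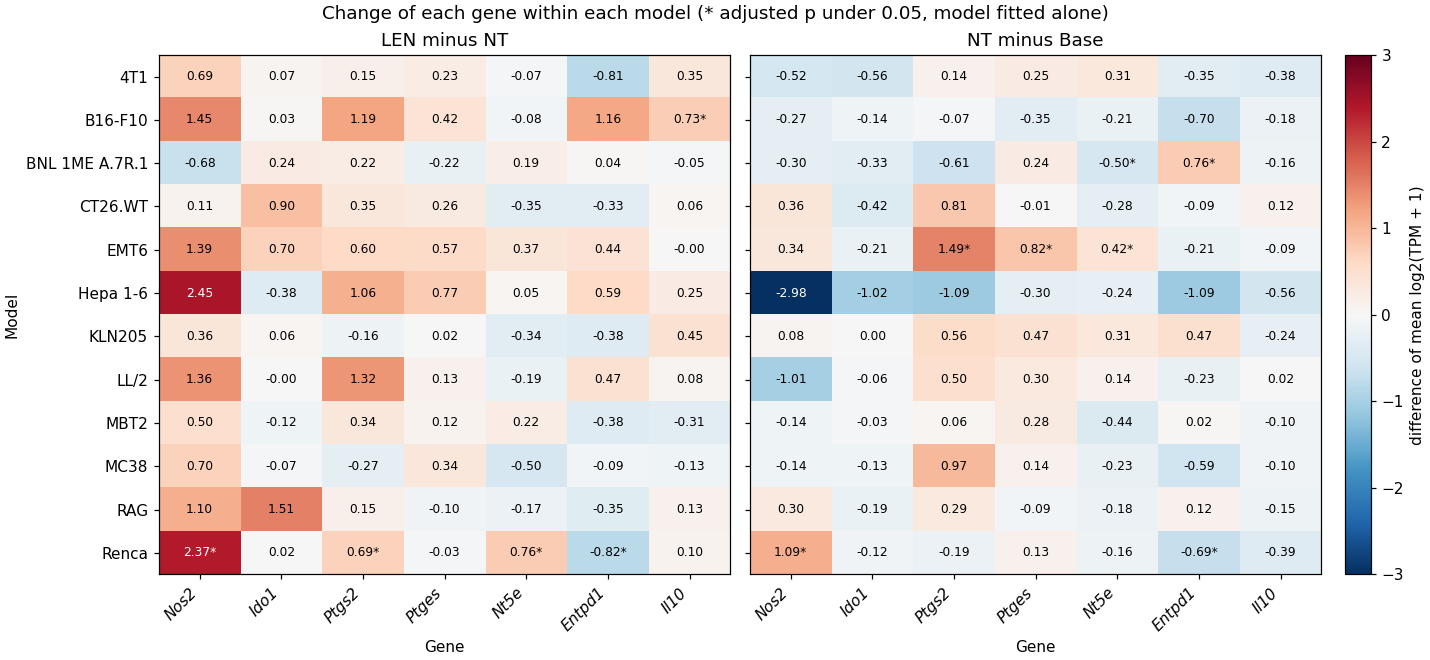
Difference of mean log2(TPM + 1) (color and number) for each gene (x axis) in each of the 12 models (y axis), for LEN minus NT (left) and NT minus Base (right), with asterisks where the adjusted p was under 0.05 with the model fitted alone. With LEN, 4 of the 5 asterisks are in Renca, and Nos2 is lower in BNL 1ME A.7R.1 alone.

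Markers of the cells that can make these products moved with LEN too. Of 4 monocyte markers 3 rose (median change 0.79), with summed levels of 4.9 to 178 TPM in NT and 12.1 to 220 TPM in LEN tumors. Of 6 neutrophil markers 5 rose (median 0.52), with sums of 1.2 to 156 TPM in NT and 11.6 to 294 TPM in LEN. Of 8 macrophage markers 7 fell (median -0.38), with sums of 74.5 to 1657 TPM in NT and 246 to 1536 TPM in LEN. All 6 T cell markers rose (median 0.34), as did 5 of 7 genes induced by interferon gamma (median 0.40). All 9 hypoxia genes rose (median 0.57), with sums of 525 to 3424 TPM in NT and 937 to 4528 TPM in LEN. Of the other lists, all 4 skeletal muscle markers rose (median 1.14), 3 of 6 dendritic cell markers rose, 1 of 6 fibroblast markers rose and 2 fell, 1 of 5 keratinocyte markers rose, and 0 of 4 mast cell, 0 of 4 hepatocyte, 0 of 4 melanocyte and 0 of 2 tested B cell markers passed. How much of the change in Nos2, Ptgs2 and Ptges goes with these cells or with hypoxia was not tested. LL/2 was the model in which the neutrophil sum differed most in TPM, from a mean of 29.1 to 178 TPM.

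**Figure D4:**
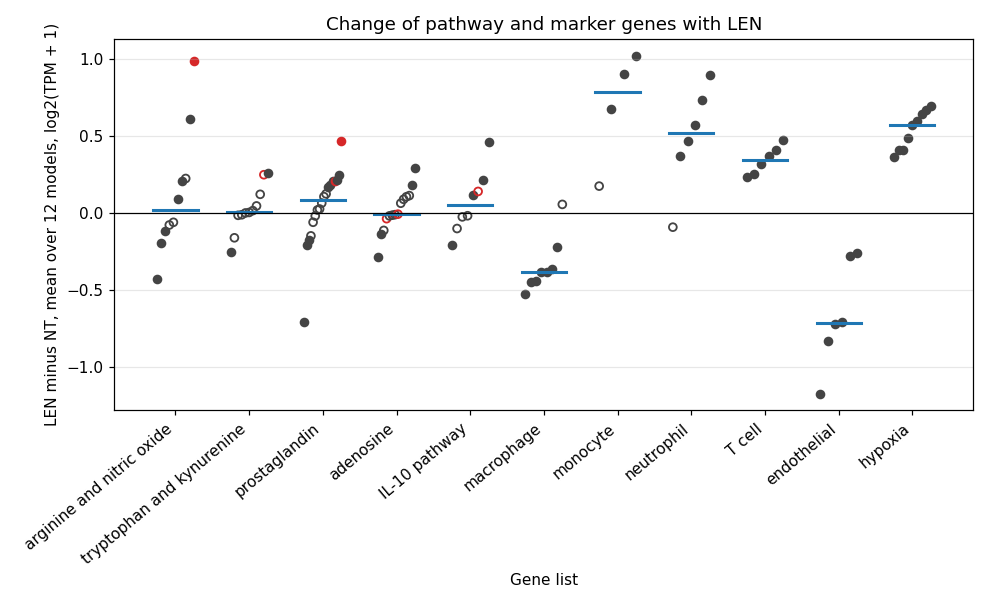
Mean change with LEN over the 12 models in log2(TPM + 1) (y axis) of each tested gene in 11 lists (x axis), with the list medians as blue bars, the 7 genes in red, other genes in gray, and filled points where the adjusted p was under 0.05. Nos2 has the largest rise in the arginine and nitric oxide list, and 7 of 8 macrophage markers lie below 0 with filled points.

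NT tumors of day 8 were compared with Base tumors to ask how the genes differed between later and earlier untreated tumors. The study describes the RNA-seq of treatment-naive tumors and of day 8 tumors separately. Growth and any difference between these experiments therefore cannot be told apart. These NT tumors are the controls of the comparison above, so values on both sides of NT are not independent. Averaged over the 12 models, Entpd1 and Il10 fell and Ptgs2 and Ptges rose. Of all 25687 genes tested, 11.7% rose and 11.4% fell, against 2 and 2 of the 7 genes. Entpd1 had all NT tumors below all Base tumors in 5 of 12 models and above in 1, where in general 11.9% of gene-by-model pairs lay below and 12% above. Nt5e lay below without overlap in 6 models and above in 1, and Ptgs2 above in 4 and below in 2.

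The largest of these differences for Nos2, Ptgs2 and Entpd1 in the downward direction were in Hepa 1-6. Nos2 went from 61.2, 93.4 and 124 TPM in Base to 5.24, 13.2 and 15.8 TPM in NT and stood at 39.1, 75.2 and 78.05 TPM in LEN. Entpd1 went from 39.9, 51.5 and 58.5 TPM to 19.6, 21.6 and 27.4 TPM without overlap. The means of Nos2 in Base, NT and LEN tumors of this model were 92.9, 11.4 and 64.1 TPM, the difference between Base and LEN not being tested. The macrophage markers in these groups summed to means of 1173, 583 and 844 TPM. Fitted alone, Hepa 1-6 had 0 called pairs and 5 with an unadjusted p under 0.05 in limma, with adjusted p = 0.0748 for Nos2 and 0.0808 for Entpd1. Of all genes 21.2% had such an unadjusted p there. With all models in 1 fit, 4 genes were lower in NT than in Base tumors of Hepa 1-6, as were 14.8% of all genes, namely Nos2 (adjusted p = 2.15e-06), Entpd1 (0.00122), Ptgs2 (0.00721) and Il10 (0.0474).

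Averaged over models, Entpd1 fell by 0.21 ± 0.07 (adjusted p = 0.0235) and Il10 by 0.18 ± 0.06 (0.0161), while Ptgs2 rose by 0.24 ± 0.09 (0.0368) and Ptges by 0.16 ± 0.06 (0.043). Nos2 (-0.27 ± 0.12, 0.118), Ido1 (-0.27 ± 0.12, 0.1) and Nt5e (-0.09 ± 0.05, 0.167) did not pass. Without Hepa 1-6 the mean change of Nos2 was -0.02 (adjusted p = 0.935). Of 83 fits that left out 1 tumor or 1 model, Nos2 passed in 4, Ido1 in 3 and Nt5e in 1. The rise of Ptgs2 was largest in EMT6, where Base tumors had 47.7, 62.2 and 63.9 TPM and NT tumors 137, 165 and 191 TPM, a 2.84-fold difference of means. Without EMT6 the mean changes of Ptgs2 and Ptges were 0.12 (adjusted p = 0.396) and 0.10 (0.307), and they kept their calls in 57 and 43 of those 83 fits. Entpd1 and Il10 kept theirs in 78 and 81 of 83, being lost without Hepa 1-6 (0.205 and 0.0737) and without Renca (0.11 and 0.0514), and Entpd1 also without 4T1, B16-F10 or MC38 (0.057 to 0.098). The numbers of genes that fell and rose depended on the scaling. Rescaling TPM over the protein-coding genes left 19.4% of the called genes higher, against 50.7% as deposited and 24.4% with the upper quartile, and with it 0 of the 7 genes rose and 4 fell, Ptgs2 (0.15, adjusted p = 0.237) and Ptges (0.08, 0.358) not passing. Both also missed the threshold with the upper quartile (0.114 and 0.161), a pseudocount of 0.1 (0.266 and 0.332), no minimum TPM (0.0527 and 0.0605) and the replicate block (0.279 and 0.112). With the block Entpd1 was lost too (-0.20, adjusted p = 0.133) and Il10 was kept (-0.16, 0.0417).

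The change from Base to NT differed between models for 5 of the 7 genes, against 50.2% of all genes tested, Ido1 (F test adjusted p = 0.924) and Il10 (0.642) being the exceptions. Fitting each model alone gave 5 higher and 2 lower pairs of 79 tested, against 3.72% and 1.09% of pairs over all genes. In limma without adjustment 23 pairs had a p under 0.05, where 19.8% of pairs over all genes did. In EMT6, Ptgs2 (change 1.49 ± 0.16, adjusted p = 0.00474), Ptges (0.82 ± 0.17, 0.0217) and Nt5e (0.42 ± 0.10, 0.0409) were higher in NT, as were 10.7% of genes. Protein-coding genes took 43.5% to 45.9% of TPM in the EMT6 Base tumors and 57.2% to 61.0% in the NT tumors. Rescaled over these genes, the changes were 1.10 for Ptgs2 (adjusted p = 0.0166), 0.44 for Ptges (0.127) and 0.04 for Nt5e (0.808), and with the upper quartile Ptges (0.0833) and Nt5e (0.362) were lost as well. In Renca, Nos2 was higher (1.09 ± 0.17, 0.0212) and Entpd1 lower (-0.69 ± 0.11, 0.0212), where 0.511% of genes were higher and 4.66% lower. In BNL 1ME A.7R.1, Entpd1 was higher (0.76 ± 0.11, 0.0066) and Nt5e lower (-0.50 ± 0.13, 0.0447), where 15.4% of genes were higher and 3.64% lower. In the same tumors the macrophage markers summed to 329 to 529 TPM in Base and 1042 to 1076 TPM in NT, the fibroblast markers to a mean of 3714 and 6775 TPM, and the skeletal muscle markers to a mean of 376.6 and 66.9 TPM. Ptgs2 in EMT6 and Entpd1 in BNL 1ME A.7R.1 kept their calls without any 1 tumor, Entpd1 in Renca in 2 of 6 such fits, Nt5e in BNL 1ME A.7R.1 in 0 of 6 and each of the others in 1 of 6. With all models in 1 fit, 4 of 84 pairs were higher and 5 lower, against 5.97% and 4.09% of pairs over all genes. The calls in EMT6 and BNL 1ME A.7R.1 were kept, and those in Renca were lost (adjusted p = 0.106 for Nos2 and 0.0658 for Entpd1). All 4 skeletal muscle markers (median change -1.28) and all 4 monocyte markers (median -0.67) fell from Base to NT, and 7 of 9 hypoxia genes rose, with 0 of 8 macrophage markers higher and 2 lower. Their part in these differences was not tested.

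In the pathway lists, more genes fell than rose from Base to NT in TPM as deposited, except in the arginine list. Over all genes 11.7% rose and 11.4% fell, a balance that depended on the scaling, as given above. Of 10 arginine and nitric oxide genes 3 rose and 2 fell, Slc7a2 by -0.47 ± 0.09 (adjusted p = 0.000186). Of 18 prostaglandin genes 3 rose and 7 fell, of 15 adenosine genes 1 rose and 5 fell, of 11 tryptophan genes 1 rose and 2 fell, and of 8 IL-10 pathway genes 0 rose and 3 fell. Slc7a2 was thus lower in NT than in Base and higher in LEN than in NT. The median change was 0.035 for the arginine list, -0.07 for the prostaglandin list and -0.08 for the adenosine list, beside -0.00283 over all genes tested.

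Within groups, some of the 7 genes varied together from tumor to tumor. After subtracting the group means, Pearson's r over all tumors was 0.605 for Nos2 and Ido1, 0.567 for Nos2 and Ptgs2, 0.527 for Nos2 and Entpd1, and 0.413 for Ptgs2 and Ptges. For Ptgs2 and Nt5e it was 0.434. The genes most like each of the 7 were sought among 17428 genes with a mean of at least 1 TPM, by Pearson's r of log2(TPM + 1) over all tumors within groups and over the 36 group means. These r are descriptions, since tumors of a model share cell line and host. Within groups, Nos2 was most like Hcar2 (0.759), Acod1 (0.757), the itaconate-forming enzyme of activated macrophages, and Cd274 (0.726), which encodes the ligand of the checkpoint receptor Pdcd1. Ido1 was most like Pla2g2d (0.78), Gbp11 (0.768, annotated as a polymorphic pseudogene) and Ubd (0.756). Ptgs2 was most like Tnfaip3 (0.713), an NF-kappaB target, Klf6 (0.685) and F3 (0.657), which encodes tissue factor.

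Entpd1 was most like the leukocyte genes Ctss (0.804), Itgb2 (0.802) and Mpeg1 (0.791) within groups and like Myo1f (0.906), Lcp2 (0.893) and Arhgap25 (0.889) over group means. Nt5e was most like Rasa1 (0.691), Itsn2 (0.671) and Fut8 (0.638) within groups and like Has2os (0.924), Epha1 (0.904) and Rem2 (0.892) over group means. Ptges was most like Mif (0.608), Eef1a1 (0.6) and Rpl10a (0.595) within groups, and over group means like Rbms1 (0.945), Twist1 (0.925) and Hist1h2br (0.912). Over group means Nos2 was most like Ccrl2 (0.789) and the MHC class I genes H2-D1 (0.775) and H2-K2 (0.772), a pseudogene with near-identical relatives whose reads may be shared. Ido1 was most like Gm11033 (0.898), Gpr31b (0.859) and Dtx3l (0.851), and Il10 like Mx1 (0.825), Gm44935 (0.82) and Ifi214 (0.808). For Ptgs2 these were Ptgs2os (0.883), Tiam2 (0.838) and Ptgs2os2 (0.833). Ptgs2os and Ptgs2os2 are named as opposite-strand transcripts of Ptgs2, and reads of the partners cannot be told apart unless the counting used strand, which is not given in the sources used here. Within groups no gene was close to Il10, whose best r were 0.457 for Bfar, 0.457 for Adora2a and 0.446 for Gm38374.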

How the data were processed

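Tumor RNA was depleted of ribosomal RNA and sequenced on NovaSeq or NextSeq instruments, and which tumor ran on which is not given in the sources used here. Reads were trimmed with Trimmomatic (version 0.36), aligned to the mouse genome (mm10) with STAR (2.5.2b) and quantified with RSEM (1.2.31) by the authors, who deposited TPM for 50686 genes. TPM sums to the same total in each tumor and keeps no depth, so counting error is unknown. Groups were taken from the sample labels, and 0 columns of other samples were present.

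The genes and all lists were chosen with earlier results of these data known, and some chosen genes are not reported here and were left out of every count over the set and the lists. Values were tested as log2(TPM + 1) with limma (3.58.1, R 4.3.3) with trended variance. Genes averaging 0.1 TPM or more in the fitted tumors entered, with Benjamini-Hochberg adjusted p and a threshold of 0.05 over all genes tested. The mean change over 12 models and the F test for differences between models used 1 mean per model and group, and each model was also fitted alone. Base tumors were compared between models by an F test. P-values measure the spread between tumors of the same model and group. Those of the mean change hold for these 12 models, since the spread of changes between models does not enter them. The study's methods describe implantation into a single flank, that is 1 tumor per mouse. In each pathway list, the 7 genes and up to 3 others with the largest change past the threshold were named, and for likeness the 3 genes with the highest r. Gene types came from GENCODE M21, and promoters from RefSeq (GRCm38.p6). As alternatives, 0.1 replaced the pseudocount of 1, the TPM minimum was dropped or set to 1, and the other alternatives were rescaling by the upper quartile or over protein-coding genes, no trend, the replicate number as a block, and leaving out each tumor or model. On simulated data of 25636 genes, the LEN against NT test recovered 96.5% of 200 genes changed by 1 on the log2 scale. The test of Renca alone recovered 82% of 200 such genes among 22446. In both, the changed genes averaged at least 1 TPM and the noise was normal. These shares thus do not apply to Il10, below 1 TPM in most tumors, or to changes smaller than 1. Other tools were Python 3.11.15, numpy 2.4.6, pandas 2.3.3 and matplotlib 3.10.9.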

Additional observations from a re-analysis of the deposited data

Results flagged for a closer look

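For several of the 7 genes the change itself differed between models by the limma F test, adjusted over all genes tested, of which 28.7% passed with LEN and 50.2% from Base to NT. With LEN these were Nos2 (adjusted p = 3.72e-05), Ptgs2 (0.00651), Nt5e (0.00184) and Entpd1 (0.00171). The model differences with LEN ranged from -0.68 in BNL 1ME A.7R.1 to 2.45 in Hepa 1-6 for Nos2. They ranged from -0.27 in MC38 to 1.32 in LL/2 for Ptgs2, from -0.50 in MC38 to 0.76 in Renca for Nt5e, and from -0.82 in Renca to 1.16 in B16-F10 for Entpd1.

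From Base to NT the change differed between models for Nos2 (adjusted p = 8.18e-05), Ptgs2 (7.47e-05), Ptges (0.0213), Nt5e (0.00196) and Entpd1 (0.00049), also by limma. Both comparisons use the same NT tumors. Nos2 ranged from -2.98 in Hepa 1-6 to 1.09 in Renca, and Ptgs2 from -1.09 in Hepa 1-6 to 1.49 in EMT6. Ptges ranged from -0.35 in B16-F10 to 0.82 in EMT6, Nt5e from -0.50 in BNL 1ME A.7R.1 to 0.42 in EMT6 (0.04 there when rescaled over protein-coding genes), and Entpd1 from -1.09 in Hepa 1-6 to 0.76 in BNL 1ME A.7R.1. Which feature of a model goes with these differences was not tested.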

How the results depend on the processing

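The 3 rises with LEN kept their direction under every alternative run. As pairs of genes and models, 4 were higher and 1 lower with LEN, and with a pseudocount of 0.1 the genes higher numbered 5 of 7, where 9.55% of all genes were. Rescaling by the upper quartile gave 3416 genes and 3 pairs lower with LEN, and rescaling over protein-coding genes 2976 genes and 2 pairs lower, where 1.39% and 1.41% of pairs over all genes were. The fit of all models gave 12 pairs higher and 0 lower, where 3.42% and 2.19% of pairs over all genes were. From Base to NT, 0 of the 7 genes were higher with a pseudocount of 0.1, with no minimum, with either rescaling and with the block. Of all genes, 10.6% were higher with that pseudocount and 7.56% with no minimum. The shares were 5.84% with the upper quartile, 4.75% with the protein-coding rescaling and 6.72% with the block. The upper quartile gave 1499 genes higher, 4647 lower and 3 pairs higher there, and the protein-coding rescaling 1221 higher, 5077 lower, 3 pairs higher and 4 of the 7 genes lower, where 1.21% and 1.14% of pairs were higher and, with the latter, 19.8% of all genes lower. A minimum of 1 TPM, which left Il10 out of the test, gave 1 of the 7 lower, where 11.5% of all genes were, and the fit of all models 5 pairs lower, where 4.09% of pairs over all genes were. The causes were not tested.

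The replicate numbers did not pair the tumors. Between LEN and NT, 20 same-numbered pairs had r from -0.141 to 0.178, 3 of them over 0.1, and between NT and Base 25 pairs had r from -0.292 to 0.175, 5 of them over 0.1. With the replicate block, set in the 8 and 11 models that share at least 2 numbers while all 12 stayed in the mean, LEN gave 1719 genes higher, 1209 lower, 4015 differing between models with 3 of the 7 genes among them, and 0 pairs higher and 0 lower. NT against Base gave 1727 higher, 1853 lower, 7986 differing with 3 of the 7 genes among them, 1 of the 7 lower, and 0 pairs higher and 0 lower.

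Leaving out 1 tumor or model with LEN gave 1609 to 3653 genes higher, 1474 to 2468 lower and 4152 to 9934 differing between models, with 2 to 4 of the 7 genes higher, 0 lower and 3 to 6 differing, and 2 to 5 pairs higher and 1 to 2 lower. The change of Nt5e ranged from -0.0791 to 0.0351 and that of Entpd1 from -0.147 to 0.0320, both crossing 0. From Base to NT it gave 1814 to 3879 genes higher, 2152 to 3263 lower and 11380 to 13375 differing, with 0 to 2 of the 7 genes higher, 0 to 4 lower and 3 to 5 differing, and 3 to 6 pairs higher and 1 to 4 lower. Depth, unknown in TPM, limits Ido1 and Il10 most, being below 1 TPM in most tumors.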
